A study of Mus musculus with 4 samples.

Results

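The 8 genes Cpa1, Cpb1, Cela1, Cela2a, Cela3b, Ctrb1, Ctrc and Ctrl belong to the carboxypeptidases, elastases and chymotrypsins that acinar cells of the pancreas secrete, although RefSeq lists mouse Ctrc as a transcribed pseudogene. They were taken by symbol from a table of counts for 24391 genes in embryonic mouse pancreas, and all 8 were among the 14550 genes with enough counts to be tested. The study asked what REST, a repressor of neuronal and endocrine genes, does during pancreas development. Its RNA-seq compared 2 Rest pKO with 2 WT libraries of whole pancreas at E18.5, near term. The labels give the Rest pKO genotype as Pdx1Cre RESTLoxP/LoxP, with LoxP sites around exon 4 of both Rest alleles, and the WT genotype as Pdx1Cre RESTwt, so that the Cre transgene is listed for both groups. All embryos are labelled as being of a mixed strain with C57BL/6. Pdx1-Cre acts in the pancreatic epithelium, from which acinar, duct and endocrine cells all derive, and leaves Rest intact in the mesenchyme.

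Acinar cells make these proteases as inactive precursors, store them in zymogen granules and release them into the duct, and trypsin activates them in the gut. Carboxypeptidases are zinc enzymes that take single amino acids off the end of a protein chain, while elastases and chymotrypsins are serine proteases that cut within it. In acinar cells such genes are driven by PTF1, a complex of PTF1A and RBPJL that binds an E-box and a TC-box side by side. Factors such as NR5A2 and MIST1 (Bhlha15) act together with it.

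The promoters of Ctrb1 and Cela1 are shown because each held an E-box followed by a TC-box core, the arrangement that PTF1 is known to bind. RefSeq gave a promoter (GRCm38.p6) for 7 of the 8 genes, all but Ctrc, and the 250 bases before the start site were searched on both strands. CANNTG, the E-box, was in 7 of 7 promoters and in 66.2% of the 32851 promoters in the RefSeq table. GGGAAA, the TC-box core, was in 4 of 7, those of Cpa1, Cela1, Cela2a and Ctrb1, and in 21.9% of all promoters. A joined form, CANNTG followed after 4 bases by the TC-box core read on its other strand, contains both shorter motifs, and its spacing was chosen after these sequences had been seen. It was in the promoters of Ctrb1 and Cela1 and in 0.0791% of all, or 26 promoters. It lay from −205 to −190 in Ctrb1 and from −109 to −94 in Cela1, counted from the start site, and capitals mark it in the minus strand sequences of chr8:111691011-111691260 and chr15:100687921-100688170.
Ctrb1: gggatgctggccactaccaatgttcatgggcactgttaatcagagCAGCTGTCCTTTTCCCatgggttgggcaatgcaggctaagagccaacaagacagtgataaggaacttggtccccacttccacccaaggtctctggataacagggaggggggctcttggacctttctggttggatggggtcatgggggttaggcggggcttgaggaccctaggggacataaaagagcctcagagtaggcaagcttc
Cela1: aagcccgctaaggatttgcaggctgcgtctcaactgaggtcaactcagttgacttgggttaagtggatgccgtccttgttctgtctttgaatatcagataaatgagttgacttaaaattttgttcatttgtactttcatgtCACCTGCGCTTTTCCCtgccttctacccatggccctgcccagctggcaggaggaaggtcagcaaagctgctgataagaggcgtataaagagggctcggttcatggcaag

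The Cela1 promoter also had a match to TATAAA, which 12.4% of all promoters held, and to AAGGTCA, the short site of NR5A2, which 4.08% held. None of the other 6 promoters had a match to either. TTCAGCACC, the left side of the element bound by REST, had no match in the 7 promoters and was in 0.301% of all. GGACAG, its right side, was in those of Cpa1, Cela3b and Ctrb1 and in 18.7% of all, and in Ctrb1 it overlapped the joined motif. These are matches of letters, and binding was not examined here. The study did map REST binding by ChIP-seq in pancreas of younger embryos, and those data were not used for this report.

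Sequence also bears on how 1 of the genes could be counted. Cela3b lies next to its paralogue Cela3a on chromosome 4, with 11207 bp and no protein-coding gene between them. Their coding sequences were identical at 94.0% of aligned bases, while no other pair among the 8 genes and Cela3a passed 67.4%. Of the 827 stretches of 100 bases in the Cela3b transcript 104, or 12.6%, also occurred in Cela3a, and the other 7 genes shared none with another gene. Their promoters were identical at 219 of 237 aligned bases (92.4%), and capitals mark the unmatched bases of the minus strand sequences of chr4:137430521-137430770 and chr4:137409792-137410041.
Cela3b: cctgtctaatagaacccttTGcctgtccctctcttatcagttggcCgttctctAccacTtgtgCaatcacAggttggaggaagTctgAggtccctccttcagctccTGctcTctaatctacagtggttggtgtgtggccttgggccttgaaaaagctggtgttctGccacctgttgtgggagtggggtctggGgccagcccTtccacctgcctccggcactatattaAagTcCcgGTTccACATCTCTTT
Cela3a: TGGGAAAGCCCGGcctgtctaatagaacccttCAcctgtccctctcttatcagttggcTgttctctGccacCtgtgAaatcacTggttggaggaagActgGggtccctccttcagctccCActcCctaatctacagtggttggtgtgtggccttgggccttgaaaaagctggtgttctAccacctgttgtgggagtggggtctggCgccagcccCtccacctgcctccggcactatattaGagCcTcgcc

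Counts summed to 20738162 and 24134100 in Rest pKO replicates 1 and 2 and to 16936759 and 18644088 in WT replicates 1 and 2. Rest itself was counted 262 and 201 times in Rest pKO pancreas, against 239 and 312 times in WT, and its log2 fold change of −0.49 did not pass the test (adjusted p = 0.593, edgeR's quasi-likelihood test with Benjamini-Hochberg adjustment). Counts over the whole transcript and the whole pancreas are no measure of the loss of exon 4. Counts of Xist and of Y-linked genes showed 1 male and 1 female embryo in each genotype, with Rest pKO replicate 1 and WT replicate 2 male. Acinar identity was plain in every library, since 35 digestive enzyme genes took 42.8% and 49.4% of the counts in Rest pKO and 42.9% and 41.3% in WT. These 35 genes include the 8 of this report. Rest pKO replicate 2 was highest in this share, but not in that of every enzyme list. Trypsinogens and their inhibitor took 4.07% and 5.12% of counts in Rest pKO and 4.51% and 4.78% in WT. Lipases and colipase took 16.1% and 15.5% in Rest pKO and 14.9% and 13.5% in WT. Rest pKO replicate 2 was thus picked on values that include those of the 8 genes. Fold changes and summed ratios of the 8 genes are given with and without it.

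Together the 8 genes held 21.1% and 27.2% of all counts in Rest pKO pancreas, against 21.7% and 21.6% in WT. Rest pKO replicate 1 was slightly below both WT libraries and replicate 2 well above them. Counting error is far smaller than these gaps, as the 95% Wilson interval of the summed share was within 0.0196 percentage points of its value and that of a single gene within 0.0141 percentage points. On the scale used for comparison, CPM (each count set against its library's total, scaled by TMM), the sums were 202418 and 298647 CPM in Rest pKO and 218245 and 202765 CPM in WT. The log2 ratio of the mean sums was 0.25, smaller than the SD of 0.40 between the Rest pKO replicates on that scale, and it was −0.06 without Rest pKO replicate 2. With 2 libraries a side an exact two-sided permutation test of a single sum cannot go below p = 0.333.

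**Figure D1:**
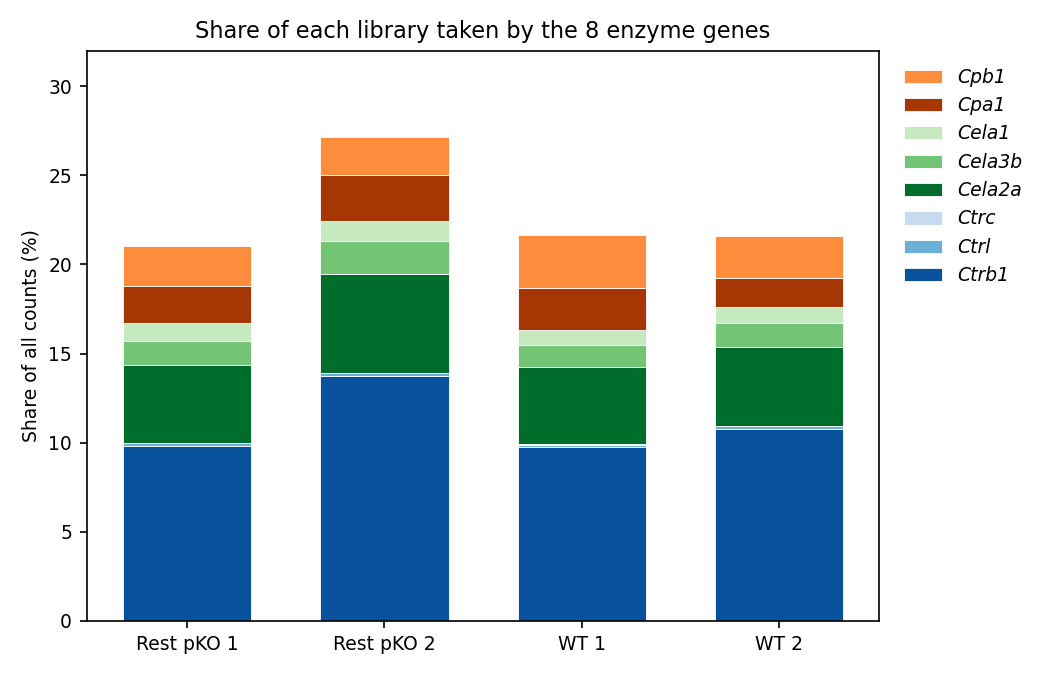
Stacked bars give the percentage of all counts of each library taken by each of the 8 genes, with Rest pKO libraries on the left and WT on the right, and blue for chymotrypsins, green for elastases and orange for carboxypeptidases. The bar of Rest pKO replicate 2 reaches 27.2%, while the other 3 end between 21.1% and 21.7%, and Ctrb1 is the largest block in all 4.

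None of the 8 genes was called by edgeR (quasi-likelihood test over 14550 genes, adjusted p below 0.05), where 0% of all genes were called higher and 0.0275% lower in Rest pKO. None had an unadjusted p under 0.05 either, against 3.26% of genes higher and 5.61% lower, and DESeq2 called none of them, against 0.179% and 0.53%. The log2 fold change was above 0 for 6 of the 8 and below 0 for 2, with a median of 0.29, where 49.5% of all genes were above 0 and the median of all genes was −0.0048. Without Rest pKO replicate 2 it was above 0 for 3 of the 8, with a median of −0.04. For Cela1 and Cela3b both Rest pKO libraries were above both WT libraries, 2 of 8 genes beside 21.5% of all genes, while no gene had both below, beside 21.2% of all genes, and for the other 6 the groups overlapped. Among genes with a mean of 1000 CPM or more, these were 2 of 7 beside 30.6% above, and 0 of 7 beside 12.2% below. The 95% intervals of the fold changes all included no difference. Their upper ends ran between 1.35-fold for Cpb1 and 2.11-fold for Cela3b, and their lower ends between 0.459-fold for Ctrc and 0.853-fold for Cela1.

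**Figure D2:**
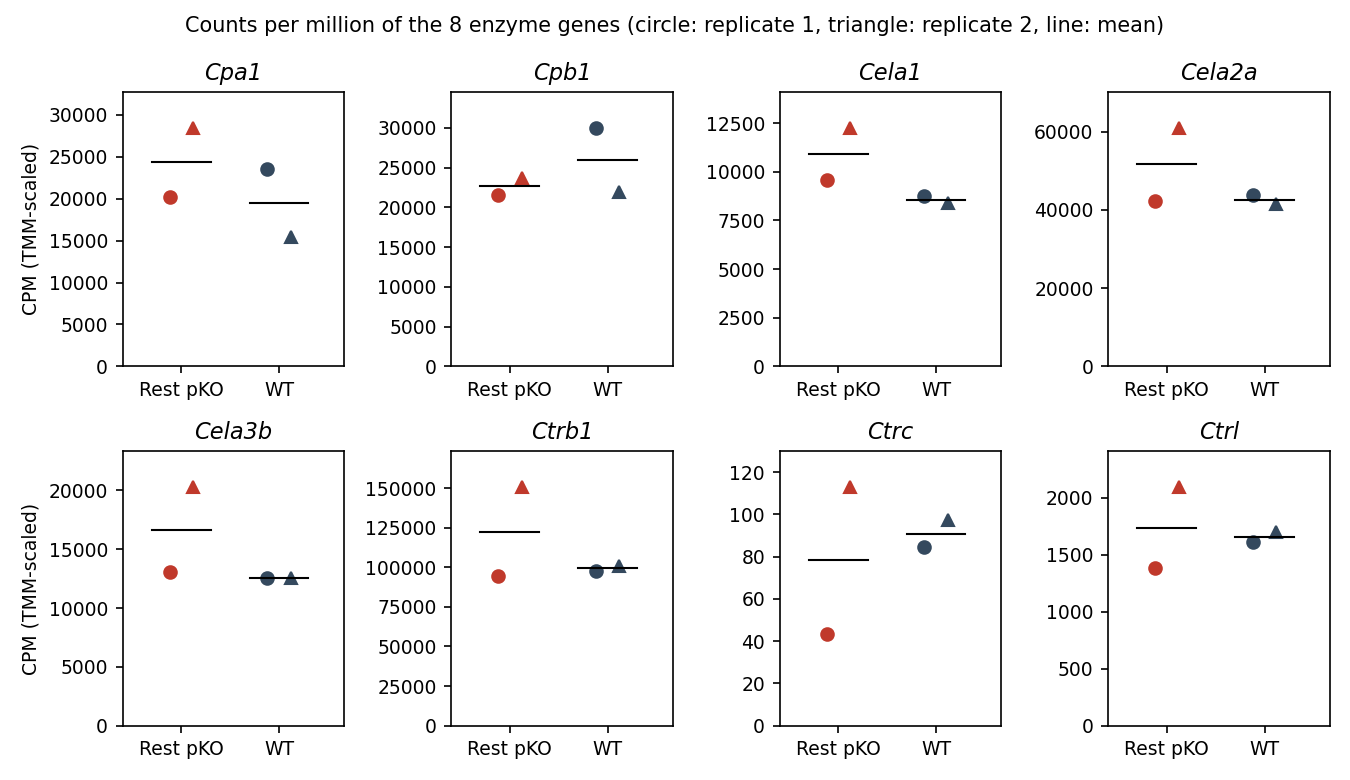
Each panel gives 1 gene's CPM (TMM-scaled) on an axis that starts at 0, with Rest pKO left and WT right, circles for replicate 1, triangles for replicate 2 and a line at the mean of the 2 libraries. In 7 of the 8 panels the Rest pKO triangle is the highest of the 4 points, the exception being Cpb1, whose highest point is WT replicate 1.

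Neither carboxypeptidase gene was called, and both differed between the WT libraries by more than the other abundant genes of the group. Cpa1, which removes aromatic and aliphatic residues, lies on chromosome 6 from 30589218 to 30595363 (mm9, plus strand, 10 exons) and took 2.11% and 2.59% of counts in Rest pKO and 2.34% and 1.65% in WT. It was at 20252 and 28460 CPM in Rest pKO, against 23590 and 15479 CPM in WT, so that the groups overlapped and WT replicate 2 was lowest. The means were 24356 ± 5804 and 19535 ± 5735 CPM in Rest pKO and WT (SD, n = 2 each), with a log2 fold change of 0.32 (SE 0.31, 95% interval −0.41 to 1.05, adjusted p = 0.749 from edgeR). Without WT replicate 2 the log2 fold change of Cpa1 was 0.04, without WT replicate 1 it was 0.65, and without Rest pKO replicate 2 it was 0.06.

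Cpb1, which removes lysine and arginine and so follows on the cuts made by trypsin, lies on chromosome 3 from 20148163 to 20174655 (minus strand, 12 exons). It took 2.24% and 2.16% of counts in Rest pKO and 2.98% and 2.34% in WT, and was at 21565 and 23740 CPM in Rest pKO against 29998 and 21969 CPM in WT. Only WT replicate 1 stood out, above the other 3 libraries. Cpb1 had a log2 fold change of −0.20 (SE 0.27, 95% interval −0.83 to 0.43, adjusted p = 0.817 from edgeR), and it was 0.04 without WT replicate 1 and −0.27 without Rest pKO replicate 2. Cpa1 and Cpb1 summed to 41817 and 52200 CPM in Rest pKO and to 53588 and 37449 CPM in WT, a log2 ratio of 0.05 in which the WT values lie on either side of both Rest pKO values, and which was −0.12 without Rest pKO replicate 2.

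Carboxypeptidases of the wider M14 family were set beside them. The 12 tested genes of other carboxypeptidases in that family, most of which act in other cells, had 3 fold changes above 0 and 9 below, with a median of −0.19, against 5 and 7 without Rest pKO replicate 2. Among them an unadjusted p under 0.05 was found for 1 gene that was higher and 1 that was lower, and edgeR with genotype alone called none. Cpa3, the carboxypeptidase of mast cells, was at 31.5 and 47.2 CPM in Rest pKO and 103 and 76.7 CPM in WT. Its log2 fold change was −1.19 (SE 0.25). DESeq2 called Cpa3 (adjusted p = 0.0055), beside 0.53% of all genes called lower. So did edgeR with sex as a term (adjusted p = 0.00166), beside 1.29% of all genes called lower. With genotype alone edgeR did not (adjusted p = 0.357), nor did it when scaled by total counts (adjusted p = 0.448). Cpe, which trims hormone precursors in endocrine cells, was at 496 and 413 CPM in Rest pKO and 389 and 311 CPM in WT (log2 fold change 0.38). The ubiquitous Cpd was at 98.9 and 83.1 CPM in Rest pKO and 118 and 121 CPM in WT (log2 fold change −0.40).

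The 3 elastase genes all had a log2 fold change above 0, and each was highest in Rest pKO replicate 2. Cela2a, which encodes the elastase that cuts after larger hydrophobic residues, lies on chromosome 4 from 141370877 to 141382075 (minus strand, 8 exons) and had rank 3 among all genes by count in every library. It took 4.40% and 5.55% of counts in Rest pKO and 4.34% and 4.42% in WT, and was at 42297 and 61001 CPM in Rest pKO against 43706 and 41579 CPM in WT. Rest pKO replicate 1 lay between the WT libraries. Cela2a had a log2 fold change of 0.28 (SE 0.28, 95% interval −0.38 to 0.94, adjusted p = 0.758 from edgeR), and it was −0.01 without Rest pKO replicate 2. Of its 1723 exon bases, 94 (5.46%) are shared with Casp9 on the other strand, whose 13.1 to 16.7 CPM is small beside Cela2a.

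Cela3b was the gene with the highest fold change of the 8. It lies on chromosome 4 from 136976914 to 136986455 (minus strand, 8 exons) and took 1.36% and 1.85% of counts in Rest pKO and 1.24% and 1.34% in WT. In Rest pKO it was at 13046 and 20292 CPM, against 12533 and 12590 CPM in WT, so that the WT libraries nearly coincided and both Rest pKO libraries lay above them, replicate 1 by little. Cela3b had a log2 fold change of 0.41 (SE 0.29, 95% interval −0.26 to 1.08), which did not pass in edgeR (adjusted p = 0.6795) or in DESeq2 (0.845), and it was 0.06 without Rest pKO replicate 2. Its paralogue Cela3a was at 75.3 and 70.0 CPM in Rest pKO and 49.6 and 47.9 CPM in WT, with a log2 fold change of 0.57 (SE 0.17), which passed neither in edgeR (adjusted p = 0.436) nor in DESeq2 (0.370). Cela3a was the only gene of this family here with an unadjusted p under 0.05 from edgeR (0.00989), and it was slightly higher in Rest pKO replicate 1 than in replicate 2. Because Cela3a was counted at 47.9 to 75.3 CPM beside a near-identical gene at 12533 to 20292 CPM, its values are uncertain.

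Cela1, which cuts after small residues such as alanine, lies on chromosome 15 from 100504856 to 100518351 (minus strand, 8 exons). It took 0.999% and 1.12% of counts in Rest pKO and 0.867% and 0.894% in WT, and was at 9600 and 12259 CPM in Rest pKO against 8732 and 8397 CPM in WT. Both Rest pKO libraries were above both WT libraries. For Cela1 the log2 fold change was 0.35 (SE 0.25, 95% interval −0.23 to 0.93, adjusted p = 0.681 by edgeR, 0.862 by DESeq2), and 0.17 without Rest pKO replicate 2. The elastases together summed to 64943 and 93552 CPM in Rest pKO and to 64971 and 62566 CPM in WT, a log2 ratio of 0.31 that was 0.03 without Rest pKO replicate 2.

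Among the chymotrypsins, Ctrb1 was by far the most abundant and Ctrc was scarce. Ctrb1, the major chymotrypsinogen of the mouse, lies on chromosome 8 from 114210410 to 114214910 (minus strand, 7 exons) and was counted 2033435 and 3309801 times in Rest pKO and 1646883 and 2003074 times in WT. These counts were 9.81% and 13.7% of the library in Rest pKO and 9.72% and 10.7% in WT, rank 1 or 2 among all genes in every library. It was at 94236 and 150690 CPM in Rest pKO against 97987 and 100960 CPM in WT, so that Rest pKO replicate 1 was lowest and replicate 2 highest. For Ctrb1 the log2 fold change was 0.30 (SE 0.31, 95% interval −0.43 to 1.03, adjusted p = 0.760 from edgeR) and −0.07 without Rest pKO replicate 2.

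Ctrl, a chymotrypsin-like protease, lies on the same chromosome from 108455894 to 108457762 (minus strand, 7 exons), with 79 protein-coding genes between it and Ctrb1. It took 0.143% and 0.190% of counts in Rest pKO and 0.160% and 0.180% in WT, and was at 1378 and 2092 CPM in Rest pKO against 1614 and 1694 CPM in WT. Its WT values fell between the Rest pKO values. The log2 fold change of Ctrl was 0.07 (SE 0.26, 95% interval −0.54 to 0.68, adjusted p = 0.935 from edgeR). Direction was not settled for this gene, as it was −0.26 without Rest pKO replicate 2, 0.34 without replicate 1, and −0.03 when libraries were scaled by total counts alone.

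Ctrc is the mouse gene named for chymotrypsin C, which in humans degrades trypsinogen. It lies on chromosome 4 from 141394154 to 141402274 (minus strand), 12078 bp from Cela2a with no protein-coding gene between them, and is listed as a transcribed pseudogene in the RefSeq annotation and as protein coding in the mm9 annotation. It was counted 941 and 2481 times in Rest pKO and 1419 and 1932 times in WT, or 0.00454% and 0.0103% of counts in Rest pKO and 0.00838% and 0.0104% in WT. In CPM it was at 43.6 and 113 in Rest pKO against 84.4 and 97.4 in WT, so that the WT values again fell between those of Rest pKO. For Ctrc the log2 fold change was −0.22 (SE 0.39, 95% interval −1.12 to 0.69, adjusted p = 0.862 from edgeR), with −1.06 without Rest pKO replicate 2 and 0.32 without Rest pKO replicate 1. The 3 chymotrypsin genes summed to 95658 and 152895 CPM in Rest pKO and 99686 and 102751 CPM in WT, a log2 ratio of 0.30 that turned to −0.08 without Rest pKO replicate 2.

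**Figure D3:**
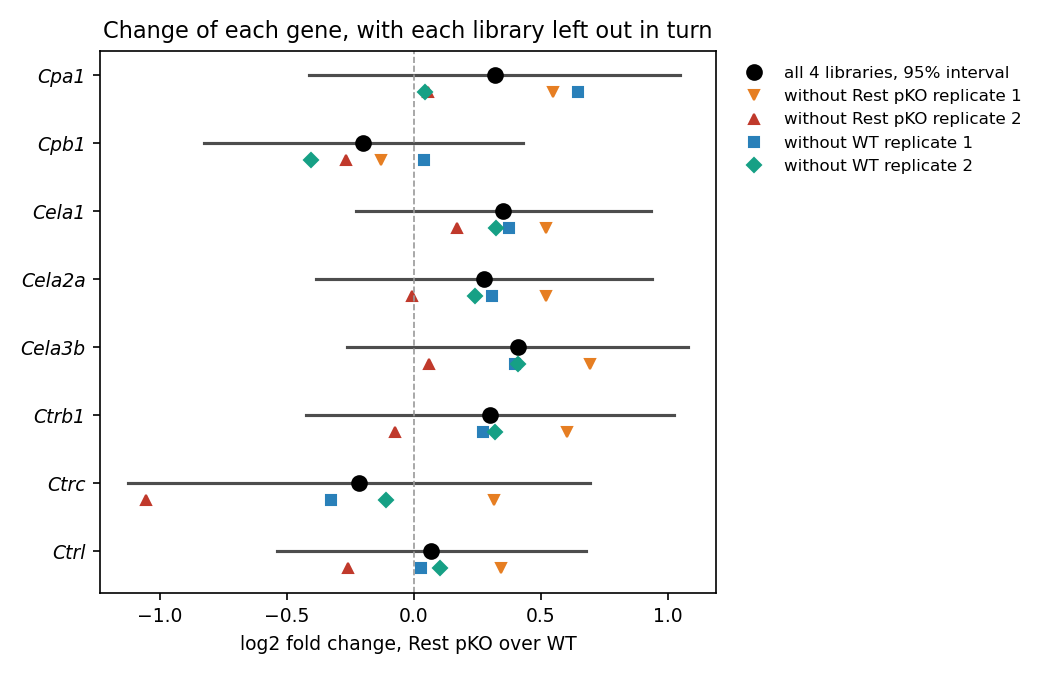
Black points give the log2 fold change of each gene, Rest pKO over WT, with its 95% interval from the fit to 4 libraries, and coloured marks below them give the value with 1 library left out. All intervals cross 0, and for all 8 genes the value is lower without Rest pKO replicate 2 than without Rest pKO replicate 1.

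Differences between replicates were often as large as those between genotypes. The ratio of CPM in Rest pKO replicate 2 to that in Rest pKO replicate 1 was 1.60 for Ctrb1, 1.56 for Cela3b, 1.52 for Ctrl, 1.44 for Cela2a, 1.41 for Cpa1, 1.28 for Cela1 and 1.10 for Cpb1, and 2.59 for the scarce Ctrc. The WT libraries were close for the 5 abundant serine proteases, with ratios of replicate 1 to replicate 2 of 0.953 for Ctrl, 0.971 for Ctrb1, 0.995 for Cela3b, 1.04 for Cela1 and 1.05 for Cela2a. The carboxypeptidases were the exception in WT, at 1.52 for Cpa1 and 1.37 for Cpb1. Over the 1037 genes that averaged 100 CPM or more, the median size of the log2 ratio between replicates was 0.27 in Rest pKO and 0.14 in WT, and the 90th percentile was 0.71 and 0.36. Cpa1 and Cpb1 were thus past the 90th percentile in WT, and Ctrb1 just under it in Rest pKO.

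**Figure D4:**
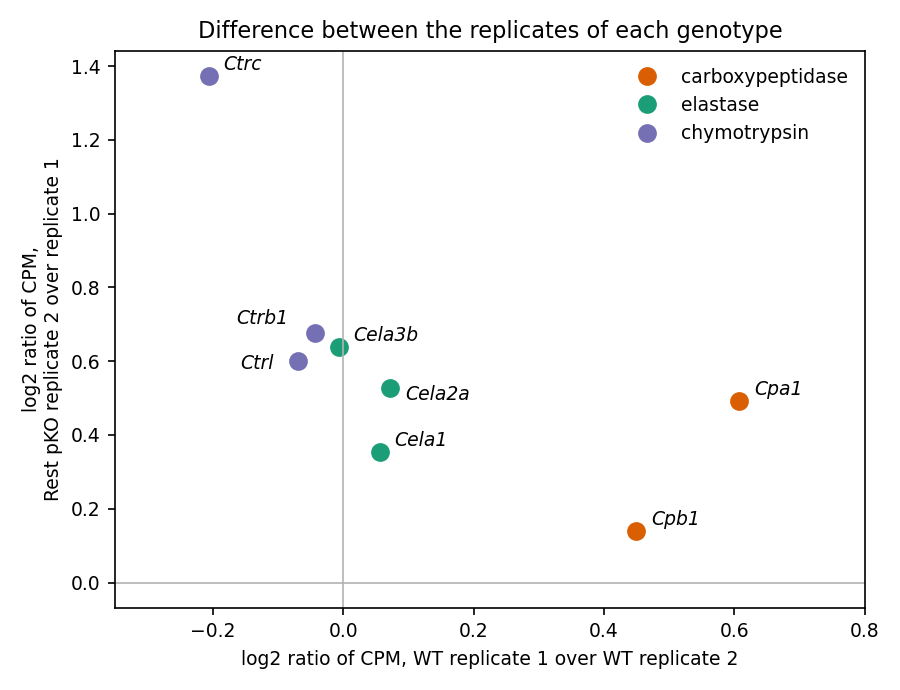
Each point is 1 gene, with the log2 ratio of CPM between the WT replicates on the horizontal axis and between the Rest pKO replicates on the vertical axis, coloured by class. The carboxypeptidases Cpa1 and Cpb1 lie to the right, at WT ratios of 1.52 and 1.37 before taking logs, and the other 6 genes lie close to or left of 0.

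Set beside each other by sex, female Rest pKO replicate 2 was above female WT replicate 1 for 7 of the 8 genes, all but Cpb1, whose ratio was 0.791. The ratio was 1.62 for Cela3b, 1.54 for Ctrb1, 1.40 for Cela1 and Cela2a, 1.34 for Ctrc, 1.30 for Ctrl and 1.21 for Cpa1. Between the male libraries, Rest pKO replicate 1 and WT replicate 2, the ratios were 1.31 for Cpa1, 1.14 for Cela1, 1.04 for Cela3b, 1.02 for Cela2a, 0.982 for Cpb1, 0.933 for Ctrb1, 0.814 for Ctrl and 0.448 for Ctrc. Cpa1, Cela1, Cela2a and Cela3b were therefore above WT within both sexes and Cpb1 below WT within both. Set beside each other by number instead, Rest pKO replicate 1 was below WT replicate 1 for Cpa1 (0.859) and Cela2a (0.968). Rest pKO replicate 2 was above WT replicate 2 for Cpb1 (1.08). Cela1 and Cela3b stayed above WT in these pairs too. The share of all genes that keep a direction within both sexes was not counted. Each sex holds 1 library per genotype, so these ratios have no replicate check, and with sex as a term in edgeR none of the 8 genes was called, beside 0.412% of all genes called higher and 1.29% called lower.

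Cela2a took nearly the same part of the group in all libraries, and the part of Ctrb1 ranged more widely. Ctrb1 made up 46.6% and 50.5% of the counts of the 8 genes in Rest pKO, against 44.9% and 49.8% in WT, and Cela2a 20.9% and 20.4% against 20.03% and 20.5%. The part of Cpb1 was 10.7% and 7.95% in Rest pKO and 13.7% and 10.8% in WT, lower in both Rest pKO libraries though by very little in replicate 1. A smaller part in both Rest pKO libraries was also seen for Ctrl, at 0.681% and 0.700% against 0.740% and 0.835% in WT, and for Ctrc, at 0.0215% and 0.0378% against 0.0387% and 0.0480%. Cela3b took a larger part in both, 6.44% and 6.79% against 5.74% and 6.21%. Cpa1, at 10.01% and 9.53% against 10.8% and 7.63%, and Cela1, at 4.74% and 4.10% against 4.001% and 4.14%, overlapped. For every carboxypeptidase count there were 3.84 and 4.72 serine protease counts in Rest pKO and 3.07 and 4.41 in WT. These parts add up to a whole, do not depend on the scaling between libraries, and were not tested. In CPM, both Rest pKO libraries were above both WT libraries for 21.5% of all genes and below both for 21.2%.

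Levels were compared between genes per kilobase of coding sequence. Ctrb1 was highest in all 4 libraries, at 118985 and 190265 CPM per kb in Rest pKO and 123721 and 127475 CPM per kb in WT, and Cela2a came next, at 51835 and 74756 against 53561 and 50954. The ratio of Ctrb1 to Cela2a in CPM per kb stayed between 2.295 and 2.545. Cpb1, Cela3b and Cpa1 followed and changed places between libraries, with Cpb1 at 17279 and 19022 CPM per kb in Rest pKO and 24037 and 17604 in WT, Cela3b at 16106 and 25052 against 15473 and 15543, and Cpa1 at 16073 and 22587 against 18722 and 12285. These 3 neighbours do not differ beyond their spread. Cela1 had rank 6 in all libraries, at 11985 and 15305 CPM per kb in Rest pKO and 10902 and 10483 in WT, followed by Ctrl at 1734 and 2631 against 2031 and 2130. Ctrc was last, at 54.2 and 140 CPM per kb in Rest pKO and 105 and 121 in WT. Its neighbour Cela2a was 956 and 532 times as high per kb in Rest pKO and 510 and 421 times as high in WT. With the union of annotated exons in place of coding length, Cpa1 had rank 3 in all 4 libraries and Cpb1 had rank 6 in 3 of them, so the order between Cela2a and Ctrl depends on the length used.

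**Figure D5:**
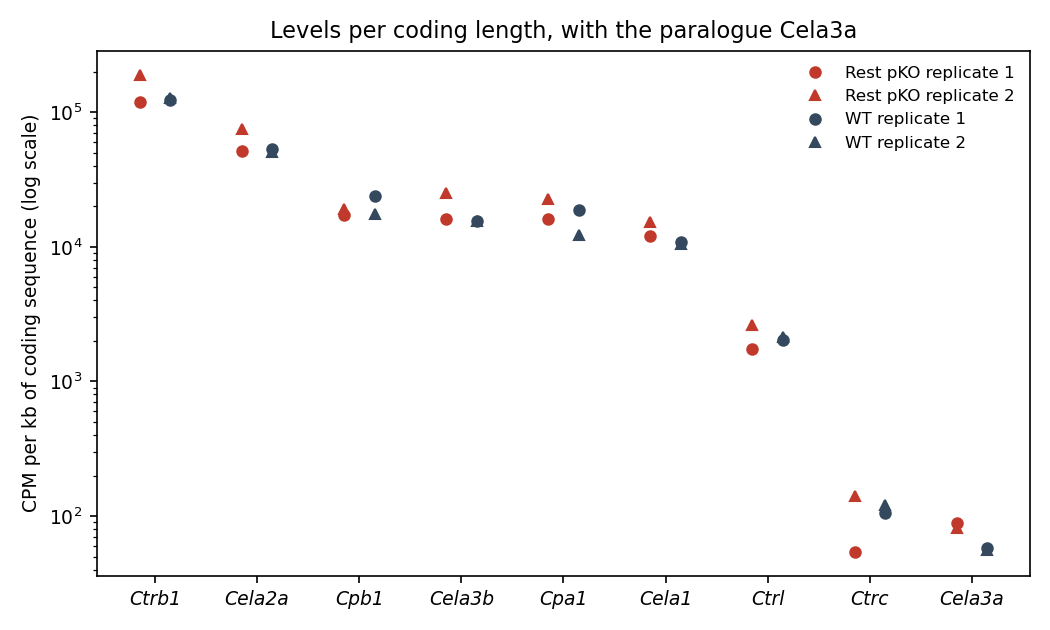
Points give CPM per kilobase of coding sequence on a log axis for the 8 genes and the paralogue Cela3a, Rest pKO in red left of WT in dark blue. Ctrb1 is highest at 118985 to 190265 CPM per kb, the genes from Cpb1 to Cela1 crowd together, and Ctrc and Cela3a lie at 54.2 to 140 CPM per kb.

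No other digestive enzyme gene was called by edgeR or DESeq2. The 8 genes made up 49.2% and 55.0% of the counts of the 35 digestive enzyme genes in Rest pKO and 50.4% and 52.2% in WT. Among the 11 tested genes of trypsinogens and their inhibitor 8 had a log2 fold change above 0 and 3 below, with a median of 0.05, against 2 above and 9 below, with a median of −0.29, without Rest pKO replicate 2. The 6 lipase and colipase genes had 4 above and 2 below, with a median of 0.13, or 3 and 3 without Rest pKO replicate 2. The most abundant of them, Pnliprp1, was at 107236 and 114614 CPM in Rest pKO and 99831 and 86490 CPM in WT (log2 fold change 0.25). None of the trypsinogen or lipase genes had an unadjusted p under 0.05. The 4 tested genes of amylases and ribonuclease had 1 above and 3 below, with a median of −0.24, and the same split without Rest pKO replicate 2. Rnase1, the ribonuclease, was at 5414 and 7540 CPM in Rest pKO and 8554 and 5855 CPM in WT (log2 fold change −0.15, and −0.41 to 0.14 with 1 library left out). Amy2b was at 785 and 537 CPM in Rest pKO and 951 and 849 CPM in WT (log2 fold change −0.45, and −0.74 to −0.19 with 1 library left out). Another 3 amylase genes, Amy2a2, Amy2a3 and Amy2a4, were listed at 0 in all libraries. The amylases and the trypsinogens are multigene families, and how their reads were assigned was not tested, so their values are uncertain.

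Among the factors of acinar cells Xbp1, a regulator of secretory capacity, was at 429 and 520 CPM in Rest pKO and 469 and 395 CPM in WT. Ptf1a was at 39.4 and 40.9 CPM in Rest pKO and 38.1 and 41.3 CPM in WT, and Rbpjl at 331 and 339 CPM in Rest pKO and 327 and 313 CPM in WT. Bhlha15 was at 281 and 366 CPM in Rest pKO and 319 and 289 CPM in WT, and Nr5a2 at 66.1 and 43.5 CPM in Rest pKO and 69.8 and 64.2 CPM in WT. Over the 8 acinar transcription factors 5 fold changes were above 0 and 3 below, with a median of 0.04, against 3 above and 5 below without Rest pKO replicate 2, and none had an unadjusted p under 0.05. The 13 genes of the secretory machinery had 10 above and 3 below, with a median of 0.12, and 1 that was above had an unadjusted p under 0.05, and without Rest pKO replicate 2 they had 7 above and 6 below. The 14 tested genes of zymogen granule and other secreted proteins had 8 above and 6 below, of which 2 above and 1 below had an unadjusted p under 0.05, and 6 above and 8 below without Rest pKO replicate 2. edgeR called none of these genes.

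Markers of other cell types were counted beside these values, and over all genes 49.5% had a log2 fold change above 0. All 10 islet markers were above 0 in log2 fold change (median 0.94), and their summed level was 4838 and 6871 CPM in Rest pKO and 3262 and 2186 CPM in WT. Of 8 mesenchyme markers 7 were below 0, with a median of −0.43 and sums of 4590 and 7202 CPM in Rest pKO and 8670 and 7743 CPM in WT. All 6 leukocyte markers were below 0, at sums of 98.5 and 162 CPM in Rest pKO and 192 and 225 CPM in WT, and the 8 duct markers were split 4 and 4. Of 6 endothelial markers 5 were above 0, as were all 6 tested of nerve and Schwann cells, and all 4 tested red cell markers were below 0. Red cell markers summed to 21.8 and 21.3 CPM in Rest pKO and 31.9 and 129 CPM in WT, so that WT replicate 2 stood out. Another 4 red cell markers were at 0 in all libraries. No islet, mesenchyme, leukocyte or duct marker in the table was at 0. Over all genes DESeq2 called 0.179% higher and 0.53% lower. Of these markers it called 6 islet markers higher, 3 leukocyte markers lower and none of the others, while edgeR called no marker. Their part in the values of the 8 genes was not tested, and in whole pancreas a difference in the number of acinar cells and one in the enzyme RNA per acinar cell cannot be told apart, in either direction.

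The mean profile of the 8 genes over the 4 libraries, as log2 CPM centred on each gene's mean, was −0.23 and 0.37 in Rest pKO and −0.01 and −0.12 in WT. Cela2a lay nearest to it, at a Euclidean distance of 0.135, and Ctrc farthest, at 0.773. Among 9154 other genes in no acinar list, each with a mean of 10 CPM or more, the nearest were Dusp8 (0.0154), Prdx5 (0.0229), Ndufa7 (0.0407), Coq10a (0.0495), Kcnj8 (0.0566) and Spryd4 (0.0599). Likeness over 4 libraries with so many candidates is a description only.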

How the data were processed

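Libraries were grouped by the genotype in their labels. The authors sequenced DNase-treated RNA as 100-bp paired ends, kept reads that STAR mapped uniquely to mm9, and deposited counts per UCSC gene from featureCounts 1.5. The strand setting and pair counting are not given in the sources used here. The paper states 3 pancreas per genotype. P-values from edgeR rest on the spread between the 2 libraries of each genotype, moderated by that of other genes (5.48 prior and 2 residual degrees of freedom). The 2 libraries of a genotype are different embryos by sex, so their spread includes any difference between the sexes.

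Counts were fitted with edgeR 4.0.16 in R 4.3.3 (filterByExpr, TMM, glmQLFit, glmQLFTest, genotype only, Benjamini-Hochberg, threshold 0.05), which was tested on simulated data. There it called 24% of genes with a true log2 fold change of 1 and 25.7% of those at −1. At 2 and −2 it called 98.7% and 93.1%, and 0.0301% of unchanged genes. The biological coefficient of variation was 0.211. Replicates differed beyond sampling noise (chi-square per degree of freedom 64.9 in Rest pKO and 23.2 in WT). Intervals of shares cover counting error only. CPM are scaled by TMM factors (1.04 and 0.910 in Rest pKO, 0.992 and 1.06 in WT).

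Genes named are the 8 enzyme genes, Rest, up to 4 genes with the highest mean CPM of each other list, and the 6 genes of nearest profile; 1 gene that this takes in is not reported here. Casp9 (which overlaps Cela2a), Ptf1a and the 3 amylase genes at 0 lie outside it, and their values had been seen when they were chosen. The members and lists were chosen with earlier results of these data known. Positions are from GENCODE vM1 (mm9, NCBI build 37). Alternatives were 3 scalings, 2 filters, DESeq2 1.42.0, a replicate block, sex as a term, each library left out, and, added after seeing the data, exon length in place of coding length.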

Additional observations from a re-analysis of the deposited data

How the results depend on the processing

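None of the 8 genes was called under any alternative run, where their adjusted p was 0.0947 or higher (edgeR and DESeq2). Over all genes, 0 were called higher and 4 lower, against 26 and 77 with DESeq2 and 60 and 187 with sex as a term. Scaling by total counts called 1 lower and turned the log2 fold change of Ctrl (−0.0285). That scaling moved the median of all genes by −0.08. Leaving out 1 library gave 1 to 59 genes higher and 0 to 455 lower, with 455 without Rest pKO replicate 1 and 0 without Rest pKO replicate 2, and 158 and 73 without WT replicates 1 and 2. The count of the 8 genes above 0 went between 3 and 7, with 3 without Rest pKO replicate 2. The log2 fold changes then ranged from −0.41 to 0.0386 for Cpb1, −0.00765 to 0.52 for Cela2a, −0.0739 to 0.60 for Ctrb1, −1.06 to 0.32 for Ctrc, −0.26 to 0.34 for Ctrl and −0.41 to 0.139 for Rnase1, which was 0.0688 without Rest pKO replicate 1. They kept their sign for Cpa1 (0.04 to 0.65), Cela1 (0.17 to 0.52) and Cela3b (0.06 to 0.70). The cause was not tested. A lone library is assumed to vary like the other genotype. Same-numbered libraries did not deviate together (r = 0.075 over genes), so the numbers are not taken as pairs, and with the replicate block 0 genes were called higher, 4 lower and 0 of the 8. The log2 ratio of the summed CPM was 0.16 with total counts and −0.06 to 0.50 with 1 library left out. Depth does not limit these abundant genes, and the spread between 2 libraries a genotype does.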
